A study of Homo sapiens with 9 samples.

Results

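HES1, the transcriptional repressor best known as a direct target of Notch signalling, was followed with 9 other genes of the pathway in SKOV3, an established line of human ovarian tumour cells, after treatment with either of 2 acetylated amino sugars. The 10 genes were chosen by symbol: the target genes HES1, HEY1 and HEYL, the receptors NOTCH1, NOTCH2 and NOTCH3, the ligands JAG1 and JAG2, the glycosyltransferase LFNG and the nuclear factor RBPJ. HES1 was picked for its low values after Ac-4-deoxy-GlcNAc in these arrays, so its values are given as a description with no test, and the others were picked for their place in the pathway, with earlier results of these data known. Of the 10, 9 had a probe set paired with 1 gene, among 14215 such genes on 17859 probe sets. The only probe set of NOTCH2 also named NOTCH2NLA, and no value is given for it.

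Total RNA was measured on 9 arrays, each from a separate culture flask of SKOV3 cells kept for 3 days in McCoy's 5A medium with fetal bovine serum. There were 3 untreated flasks, 3 given 50 µM Ac-GlcNAc (peracetylated N-acetylglucosamine) and 3 given 50 µM Ac-4-deoxy-GlcNAc, its peracetylated analog without the hydroxyl group at carbon 4. No vehicle was named for the untreated flasks, and all arrays came from 1 cell line, so the p-values measure the spread between flasks. Array medians lay between 6.58 and 6.65 on the log2 scale. Untreated replicate 2 stood apart: the SD of its values was 1.92, where the 8 remaining arrays had 2.07 to 2.18, and it correlated with those at 0.987 on average. Several, but not all, of the differences from untreated that it moved are given with and without it.

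Notch is a cell surface receptor that is activated by a Jagged or Delta ligand on a neighbouring cell. Sugars added to its extracellular repeats, and extended by Fringe enzymes such as LFNG, set how strongly it answers each ligand; after ligand binding it is cut by ADAM and gamma-secretase proteases. The freed intracellular part joins RBPJ and Mastermind on DNA and turns on target genes, among them the HES and HEY repressors, and HES1 also binds its own promoter and represses it.

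The DNA before the start of 3 members is printed with its matches to the RBPJ core. Each line gives, 5′ to 3′ on the strand of the gene, the 250 bases before a RefSeq start in GRCh38.p14, and capitals mark the RBPJ core TGGGAA, or TTCCCA where the match lies on the opposite strand. HES1 (chr3:194135898-194136147, plus strand) is shown because its level after the deoxy analog was lower than in either other group. HEYL (chr1:39639644-39639893, minus strand) is another target with the same number of matches. JAG1 (chr20:10674000-10674249, minus strand) is a gene called lower whose window holds no match. Sites outside the windows were not searched, and the part of RBPJ in any difference was not tested.
HES1: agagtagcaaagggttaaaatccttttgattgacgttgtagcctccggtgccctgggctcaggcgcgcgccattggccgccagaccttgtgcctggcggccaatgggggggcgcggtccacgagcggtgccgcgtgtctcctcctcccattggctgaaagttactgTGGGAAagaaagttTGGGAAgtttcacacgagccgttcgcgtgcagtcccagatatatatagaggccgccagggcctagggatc
HEYL: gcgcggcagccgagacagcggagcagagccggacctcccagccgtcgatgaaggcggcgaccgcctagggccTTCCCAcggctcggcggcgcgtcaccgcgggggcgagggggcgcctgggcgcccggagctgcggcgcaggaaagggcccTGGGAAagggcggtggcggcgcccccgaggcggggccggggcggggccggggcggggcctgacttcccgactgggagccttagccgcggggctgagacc
JAG1: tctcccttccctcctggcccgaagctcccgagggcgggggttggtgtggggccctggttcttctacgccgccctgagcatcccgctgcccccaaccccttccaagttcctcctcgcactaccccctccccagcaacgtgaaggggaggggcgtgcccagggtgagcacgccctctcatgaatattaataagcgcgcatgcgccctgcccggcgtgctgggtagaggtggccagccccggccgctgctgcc

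The HES1 window held TGGGAA at 84 and 70 bases before the start, and the first of these extended to GTGGGAA, which contains the core. It also held 3 matches to the N-box CACNAG, at 165, 132 and 58 bases before the start, and 2 to the class C site CACGCG, at 120 and 47 bases, both of them motifs that HES repressors are known to bind. No CACGTG, the class B E-box, lay in it. HEYL had TGGGAA at 178 bases, on the opposite strand, and at 99 bases before its start, and the first of these also extended to GTGGGAA.

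Both strands of 35116 windows of the same length, for 27305 symbols, were searched for comparison. TGGGAA occurred at least once in 20.8% of them and at least 2 times in 2.90%, and GTGGGAA in 5.43%. CACNAG occurred in 32.0%, CACGCG in 9.72% and CACGTG in 6.34%. Of the 10 genes, 9 had 1 or more windows, 14 in all, and 4 of the 14 held TGGGAA, those of HES1, HEYL, the LFNG start 2 (248 bases before it) and the RBPJ start 2 (115 and 72 bases, both extended to GTGGGAA). A match is a run of letters, and no binding was measured.

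**Figure D1:**
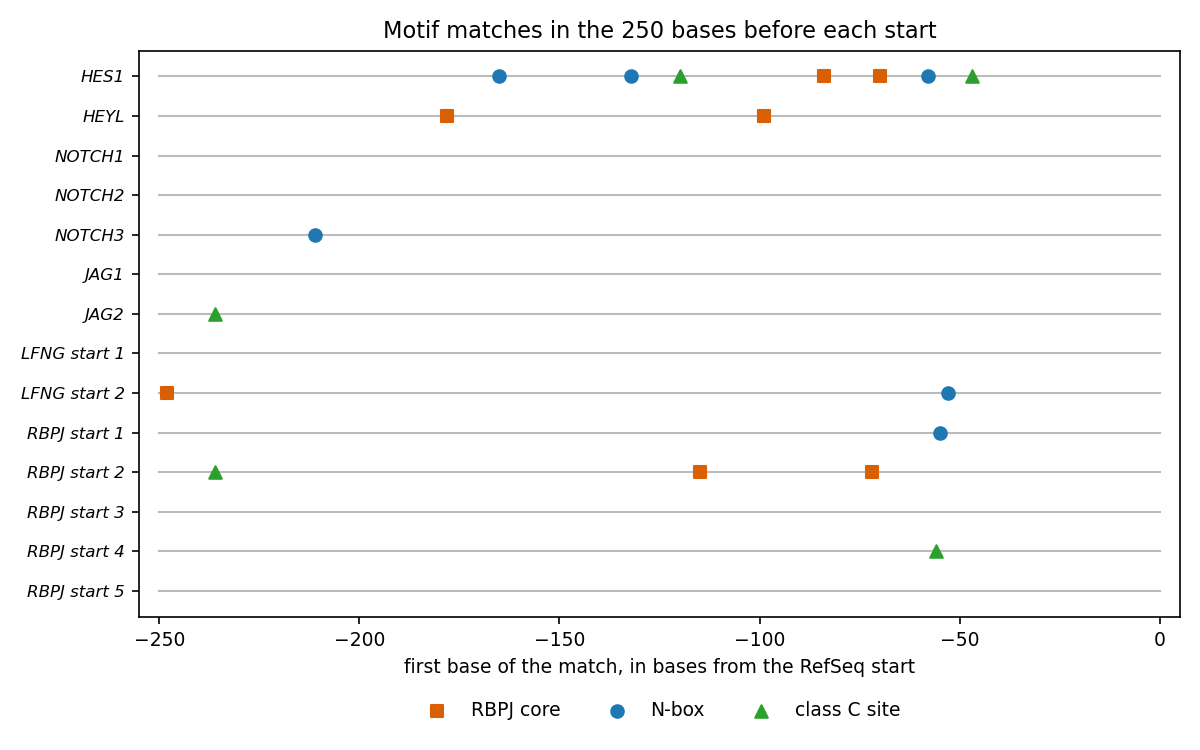
Matches to the RBPJ core (squares), the N-box (circles) and the class C site (triangles), drawn at the distance of their first base from each RefSeq start in bases, with 1 line for each of 14 windows of 250 bases; HEY1 has no window. HES1 carries 7 matches, while NOTCH1, NOTCH2, JAG1, the LFNG start 1 and the RBPJ starts 3 and 5 carry none.

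HES1 mRNA stood at its lowest after Ac-4-deoxy-GlcNAc. The log2 levels were 8.98, 9.21 and 9.36 on the untreated arrays, 9.05, 8.73 and 8.80 after Ac-GlcNAc, and 7.61, 7.96 and 7.90 after Ac-4-deoxy-GlcNAc. All 3 arrays of the deoxy analog lay below all 6 others, while the untreated and Ac-GlcNAc arrays overlapped. Means were 9.18 ± 0.19 (SD, n = 3), 8.86 ± 0.17 and 7.82 ± 0.19.

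Expressed as differences of log2 levels, HES1 with Ac-4-deoxy-GlcNAc stood at -1.36 from untreated (SE 0.13), which is 2.57-fold. Against Ac-GlcNAc the difference was -1.04, or 2.05-fold. Ac-GlcNAc against untreated gave -0.32, with arrays that overlapped. The SE describes the spread between flasks and is no test, since these values were used to pick the gene. Without untreated replicate 2, the 4-deoxy difference from untreated was -1.35. Over 20 other settings of the analysis it stayed between -1.46 and -1.24, that against Ac-GlcNAc between -1.10 and -0.93, and that of Ac-GlcNAc from untreated between -0.44 and -0.24. In RNA of whole flasks, fewer cells that express a gene and less of its RNA per cell cannot be told apart.

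**Figure D2:**
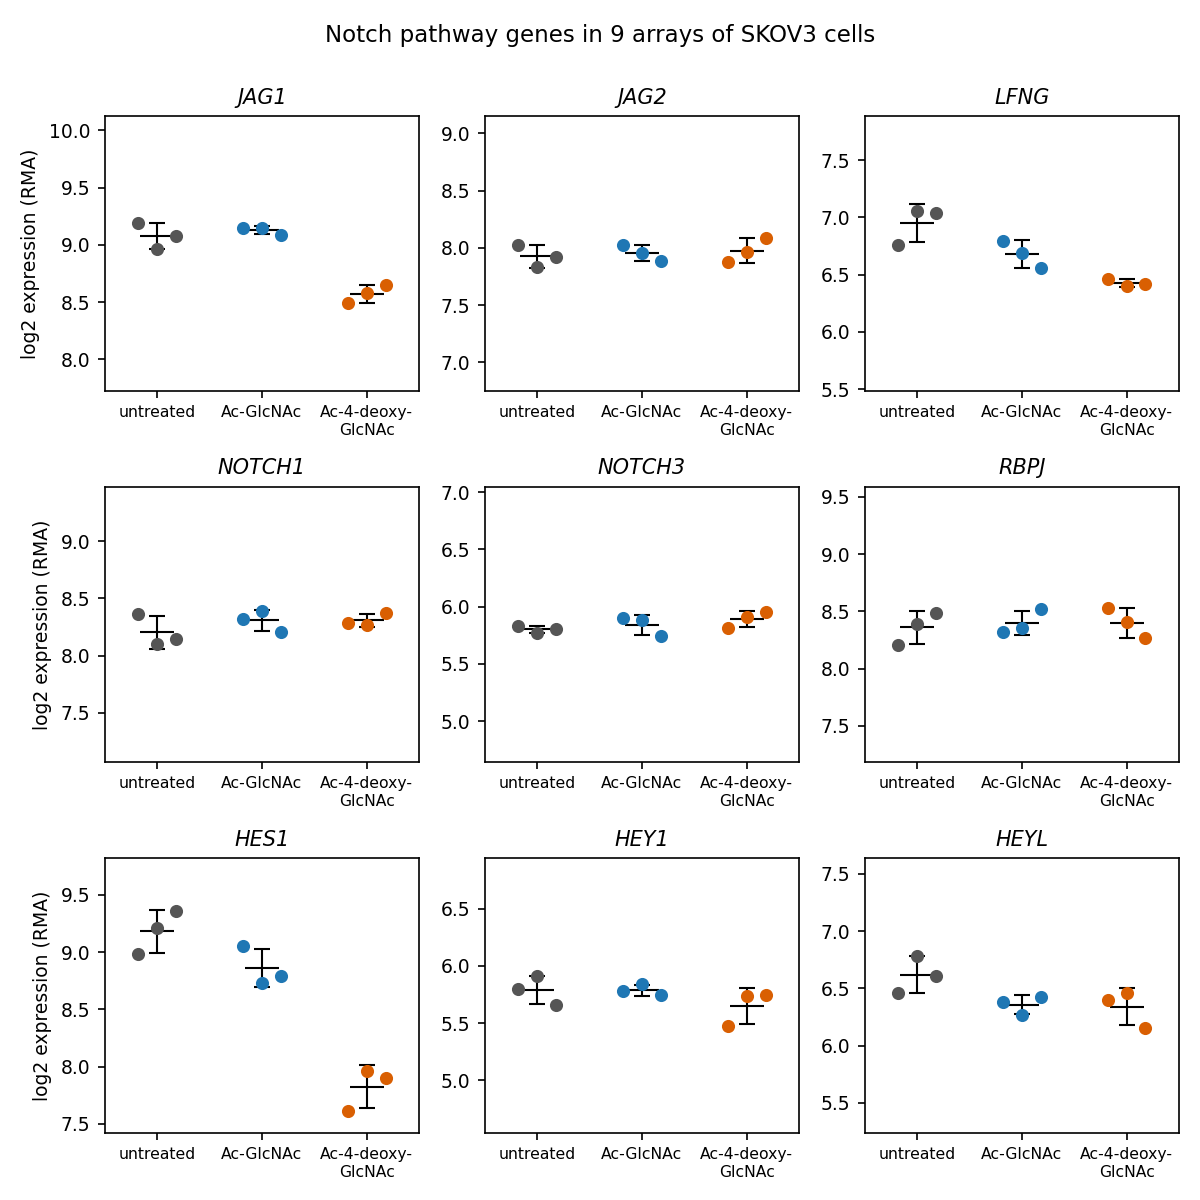
Log2 level of each of the 9 measured genes on every array, by group, with bars for the mean and SD (n = 3); every panel spans the same number of log2 units. HES1, JAG1 and LFNG sit lowest on the 3 Ac-4-deoxy-GlcNAc arrays, from 7.61 to 7.96, 8.49 to 8.65 and 6.40 to 6.46, while NOTCH1, NOTCH3, JAG2 and RBPJ lie in the same range in all 3 groups.

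Among the ligands, JAG1, which encodes the Jagged 1 ligand of Notch receptors, fell with the deoxy analog and not with Ac-GlcNAc. Its log2 levels were 9.19, 8.96 and 9.07 untreated, 9.14, 9.15 and 9.09 after Ac-GlcNAc, and 8.49, 8.58 and 8.65 after Ac-4-deoxy-GlcNAc. The deoxy arrays lay below the 6 others, which overlapped each other. The difference from untreated was -0.50 (SE 0.09, limma adjusted p = 0.00664), or 1.42-fold, and that from Ac-GlcNAc was -0.56 (SE 0.09, limma adjusted p = 0.00798), or 1.47-fold. Both calls held when any 1 array of the groups compared was left out, in 6 of 6 fits each, and without untreated replicate 2 the difference from untreated was -0.56 (limma adjusted p = 0.00634). Ac-GlcNAc against untreated gave 0.05 (95% interval -0.15 to 0.26, limma adjusted p = 0.73), and its sign turned under cyclic loess and quantile normalization.

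JAG2, the other Jagged ligand, ranged from 7.83 to 8.09 over the 9 arrays with overlapping groups. Its differences were 0.05, 0.03 and 0.02 for Ac-4-deoxy-GlcNAc against untreated, Ac-GlcNAc against untreated and Ac-4-deoxy-GlcNAc against Ac-GlcNAc. The interval of the last of these ran from -0.19 to 0.23, so a change between the compounds of the size seen for JAG1 lies outside it.

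LFNG encodes lunatic fringe, which lengthens O-fucose on the Notch extracellular repeats by adding N-acetylglucosamine. Its log2 levels were 6.76, 7.06 and 7.04 untreated, 6.80, 6.69 and 6.56 after Ac-GlcNAc, and 6.46, 6.40 and 6.42 after Ac-4-deoxy-GlcNAc. The deoxy arrays did not overlap those of either other group, and the Ac-GlcNAc arrays overlapped the untreated ones. LFNG fell with the deoxy analog against untreated by 0.52 on the log2 scale (SE 0.11, limma adjusted p = 0.00914), or 1.44-fold. The call held in 6 of 6 fits that left out 1 array of these groups, with -0.47 (limma adjusted p = 0.0262) without untreated replicate 2. It was lost once the SD of every array was added as a covariate, where the difference was -0.44 (limma adjusted p = 0.0666).

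Ac-GlcNAc gave LFNG a difference of -0.27 from untreated (limma adjusted p = 0.137). Between the 2 compounds the difference was -0.25 (95% interval -0.48 to -0.03, limma adjusted p = 0.292). A fall of LFNG particular to the deoxy analog was therefore not shown at this number of arrays, unlike the fall of JAG1. Under array weights, which give noisier arrays less influence, the difference between the compounds was -0.31 and passed (limma adjusted p = 0.0383).

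The receptors lay close together in all groups. NOTCH1 ranged from 8.10 to 8.39 over the 9 arrays and NOTCH3 from 5.74 to 5.95. NOTCH3 lay at a low level, percentile 40.8 of all probe sets. Against untreated, the deoxy analog gave 0.10 for NOTCH1 (limma adjusted p = 0.49) and 0.09 for NOTCH3 (limma adjusted p = 0.522), and Ac-GlcNAc gave 0.10 and 0.04. The interval between the compounds for NOTCH1 was -0.22 to 0.22 and for NOTCH3 -0.15 to 0.24. RBPJ, the DNA-binding partner of the cut receptor, ranged from 8.20 to 8.53. Its differences were 0.04 for each compound against untreated and 0.00 between the compounds (95% interval -0.23 to 0.24). The signs of the NOTCH1 and RBPJ differences turned under some scalings of the arrays, so no direction is read from them.

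The other targets, HEY1 and HEYL, encode repressors related to HES1. HEYL read 6.46, 6.78 and 6.61 untreated, 6.38, 6.27 and 6.43 after Ac-GlcNAc, and 6.40, 6.46 and 6.16 after Ac-4-deoxy-GlcNAc. The untreated arrays lay above all 3 of Ac-GlcNAc, and the lowest of them, at 6.460, lay just under the highest of the deoxy analog, at 6.462. Neither difference from untreated passed, at -0.28 for the deoxy analog (limma adjusted p = 0.117) and -0.26 for Ac-GlcNAc (limma adjusted p = 0.168). Without untreated replicate 2 the former was -0.19. Between the compounds the HEYL difference was -0.02 (95% interval -0.26 to 0.22), an interval that does not reach the -1.04 of HES1.

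HEY1 read 5.80, 5.91 and 5.66 untreated, 5.78, 5.84 and 5.75 after Ac-GlcNAc, and 5.47, 5.74 and 5.75 after the deoxy analog. The highest deoxy array, at 5.746, lay just under the lowest Ac-GlcNAc array, at 5.747. The differences from untreated were -0.14 for Ac-4-deoxy-GlcNAc (limma adjusted p = 0.379) and 0.00 for Ac-GlcNAc (limma adjusted p = 0.995). Between the compounds it was -0.14 (95% interval -0.36 to 0.09, limma adjusted p = 0.696). Beside the 2.57-fold difference of HES1 between the deoxy analog and untreated, those of HEYL and HEY1 were 1.21-fold and 1.10-fold. The difference between genes was not tested. HEYL and HEY1 also lay lower, at means of 6.44 and 5.74 over the 9 arrays (percentiles 47.8 and 39.4 of all probe sets). HES1 averaged 8.62 (percentile 77.3). Signal over background could not be assessed, so how far a low level limits the differences of HEYL and HEY1 is not known.

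**Figure D3:**
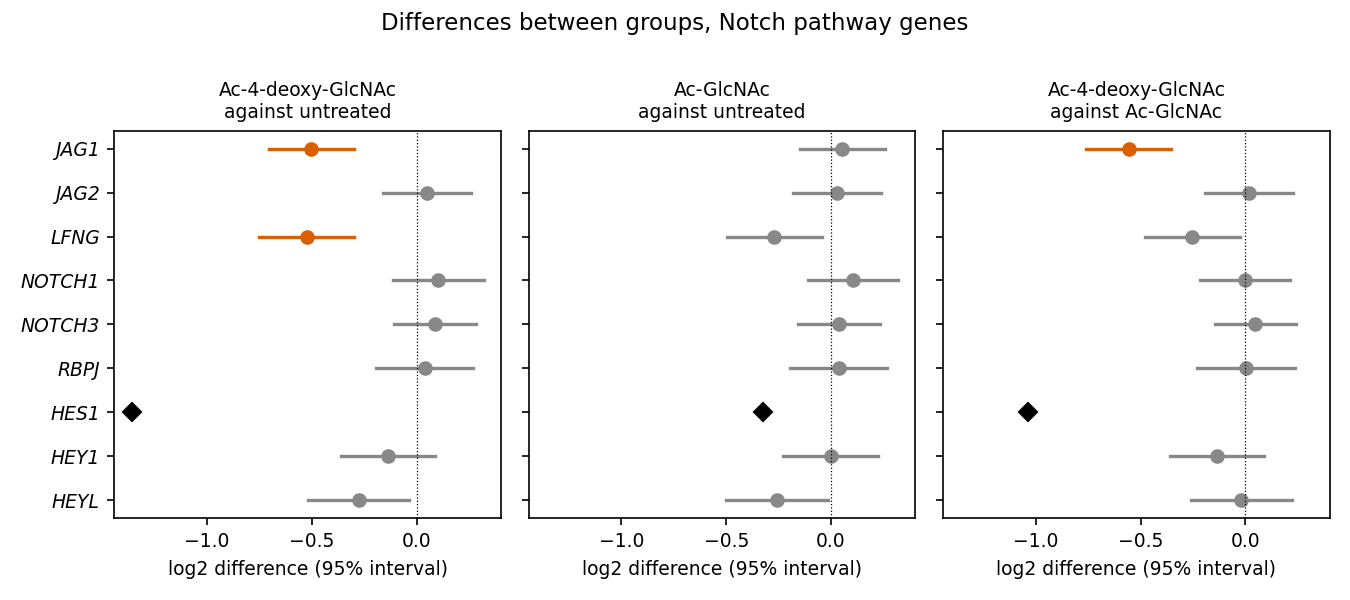
Difference of log2 levels for the 9 measured genes in each comparison, with its 95% interval for all but HES1 (diamond), which was not tested; orange marks genes called at an adjusted p under 0.05. Ac-4-deoxy-GlcNAc has JAG1 and LFNG called lower than untreated and JAG1 also lower than Ac-GlcNAc, and no gene is called with Ac-GlcNAc against untreated.

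Counts over the 8 measured genes other than HES1 were read against all probe sets. A gene was called at a Benjamini-Hochberg adjusted p under 0.05 over all 17859 probe sets. With Ac-4-deoxy-GlcNAc against untreated, 2 of 8 were lower and 0 higher, where 11% of all probe sets were called, 5.38% higher and 5.64% lower. Groups were without overlap for 2 of 8, against 32.1% of all probe sets. With Ac-GlcNAc against untreated, limma called 0 of 8, where 0.442% of all probe sets were called, 0.207% higher and 0.235% lower. There 2 of 8 (LFNG and HEYL) had an unadjusted p under 0.05, beside 4719 of all 17859 probe sets. HEYL was the 1 gene of 8 without overlap, against 32.3% overall. Between the compounds 1 of 8 was called, lower, where 2.38% were called, 0.896% higher and 1.48% lower, and 3 of 8 did not overlap, against 21.2%.

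The median difference of the 8 genes was -0.05, 0.03 and -0.01 in the same order, beside -0.05, -0.02 and 0.00 over all probe sets. The comparisons share arrays, the untreated ones in the first 2 and each compound's in the third, so their values are given side by side only. Of the 79 calls of Ac-GlcNAc against untreated over all probe sets, 46.8% were higher. With each array centred on its median there were 32 calls, a smaller set, of which 59.4% were higher, and with a replicate block 29.6% of 324 calls were.

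A wider list held 79 pathway genes in 7 roles, of which 60 were measured on a probe set of 1 gene and 10 only on shared ones. Without HES1, 59 remained. With Ac-4-deoxy-GlcNAc against untreated, 4 of 59 rose and 3 fell, and 52 were not called, a share close to the 11% of all probe sets. The median of the 59 was 0.00, beside -0.05 over all probe sets. Limma called 0 of 59 with Ac-GlcNAc against untreated, where 0.442% of all probe sets were called. In that comparison 7 of 59 had an unadjusted p under 0.05, beside 4719 of all 17859 probe sets. Between the compounds only JAG1 was called among the 59, where 2.38% of all probe sets were. There 8 of 59 had an unadjusted p under 0.05, beside 2429 of all 17859 probe sets.

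The 4 rises lay among factors that act with or against the nuclear Notch complex and on ligand uptake. KDM5A, a histone demethylase recruited by RBPJ at silent targets, read 6.74, 6.64 and 6.66 untreated, 6.91, 7.05 and 6.98 after Ac-GlcNAc, and 7.48, 7.12 and 7.37 after Ac-4-deoxy-GlcNAc. The 3 groups did not overlap at all. KDM5A rose with the deoxy analog by 0.64 over untreated (SE 0.11, limma adjusted p = 0.00333) and kept its call in 6 of 6 fits that left out 1 array. Its differences of 0.30 for Ac-GlcNAc (limma adjusted p = 0.115) and 0.34 between the compounds (limma adjusted p = 0.126) did not pass.

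The other 3 rises were smaller and lost their calls when single arrays were left out. TLE4, a Groucho co-repressor that HES proteins recruit, rose by 0.46 (limma adjusted p = 0.0307), MIB1, the ubiquitin ligase that drives ligand endocytosis, by 0.38 (limma adjusted p = 0.049), and CREBBP, a histone acetyltransferase, by 0.32 (limma adjusted p = 0.0448). When 1 array of the compared groups was left out, TLE4 and MIB1 kept their calls in 2 of 6 fits each and CREBBP in 1 of 6. Each of the 3 lost its call without untreated replicate 2, untreated replicate 3, or Ac-4-deoxy-GlcNAc replicate 1 or 3, and CREBBP also without Ac-4-deoxy-GlcNAc replicate 2. With untreated replicate 2 left out, the differences were 0.34 for TLE4, 0.25 for MIB1 and 0.28 for CREBBP. CREBBP kept its call in only 5 of 11 other settings, and lost it with a replicate block (limma adjusted p = 0.0582), cyclic loess (0.0616) and quantile normalization (0.0597), among others. None of the 3 passed in either other comparison.

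Among 12 targets other than HES1, only HEY2 was called with Ac-4-deoxy-GlcNAc against untreated, where 11% of all probe sets were. With 12 genes, 1 call lies close to that share. HEY2, a HES-related repressor at percentile 44.1 of level, read 6.04, 6.52 and 6.53 untreated. It read 6.19, 5.94 and 6.20 after Ac-GlcNAc, and 5.91, 5.81 and 5.89 after Ac-4-deoxy-GlcNAc. The deoxy arrays lay below all others, and untreated replicate 1 lay apart from the other untreated arrays. HEY2 fell with the deoxy analog by 0.49 (SE 0.13, limma adjusted p = 0.0307), a call kept in 1 of 6 fits, the one without untreated replicate 1. Without untreated replicate 2 it was -0.41 (limma adjusted p = 0.0964). The difference between the compounds was -0.24 (limma adjusted p = 0.484).

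Of the other roles, 1 of 6 ligands (JAG1), 1 of 7 glycosylation enzymes (LFNG), 1 of 10 trafficking genes and 3 of 19 nuclear factors were called in that comparison, where 11% of all probe sets were. None of the 2 receptors and 5 genes of proteolytic processing passed the limma test. Of those 5, 2 had an unadjusted p under 0.05, beside 5579 of all 17859 probe sets. Those 2 encode parts of gamma-secretase: PSEN2 differed from untreated by -0.28 (limma adjusted p = 0.0774) and APH1A by -0.22 (limma adjusted p = 0.13).

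The whole count of 7 calls with the deoxy analog stood beside 1968 calls over all 17859 probe sets. It was 3 in each fit that left out untreated replicate 2, untreated replicate 3, or Ac-4-deoxy-GlcNAc replicate 1 or 3. In the same order those fits called 1003, 1445, 890 and 604 over all probe sets. Leaving out Ac-4-deoxy-GlcNAc replicate 2 gave 5, beside 1784 over all probe sets. Leaving out untreated replicate 1 gave 11, beside 3076. The count of the list thus moved with that of all probe sets. JAG1, LFNG and KDM5A kept their calls in all 6 of these fits.

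**Figure D4:**
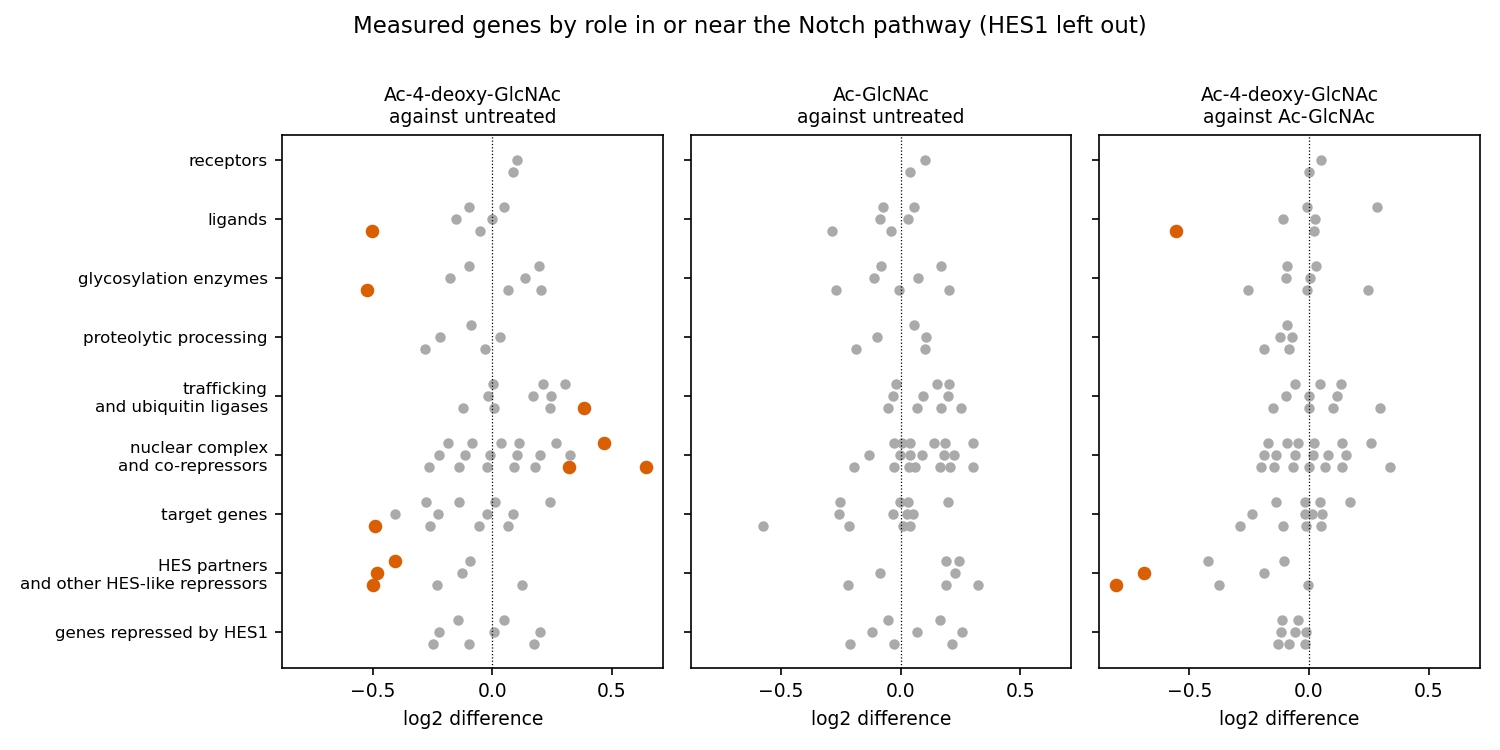
Difference of log2 levels for each measured gene by role, HES1 left out, with 1 point per gene; orange marks genes called at an adjusted p under 0.05 and grey those not called. With Ac-4-deoxy-GlcNAc against untreated, calls lie on both sides of 0, from -0.52 (LFNG) to 0.64 (KDM5A), and between the compounds the calls are JAG1 at -0.56, ID2 at -0.69 and ID3 at -0.81.

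Partners and relatives of HES1 were also examined, a list of 9 genes with 7 measured. With Ac-4-deoxy-GlcNAc 3 of 7 fell against untreated, where 5.64% of all probe sets were called lower, and 2 of 7 against Ac-GlcNAc, where 1.48% were. Between the compounds ID1 and ID4, named after their values were seen, were not called but were in 5 and 3 of 11 other settings. With Ac-GlcNAc against untreated limma called 0 of 7, where 0.442% of all probe sets were called. There 3 of 7 had an unadjusted p under 0.05, beside 4719 of all 17859 probe sets. ID3 encodes a helix-loop-helix protein without a DNA-binding region, of a family that binds HES1 and other such factors. Its levels were 8.52, 8.07 and 8.46 untreated, 8.75, 8.62 and 8.67 after Ac-GlcNAc, and 7.71, 7.86 and 8.05 after the deoxy analog. The 3 groups did not overlap, and Ac-GlcNAc stood highest. ID3 fell with the deoxy analog by 0.81 against Ac-GlcNAc (SE 0.13, limma adjusted p = 0.00559), kept in 6 of 6 fits, and by 0.48 against untreated (limma adjusted p = 0.0307), kept in 2 of 6, with -0.62 without untreated replicate 2, and lost without untreated replicate 1 or 3 or Ac-4-deoxy-GlcNAc replicate 1 or 2.

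ID2, of the same family, read 9.59, 9.50 and 9.65 untreated, 9.84, 9.56 and 9.92 after Ac-GlcNAc, and 9.01, 9.17 and 9.06 after Ac-4-deoxy-GlcNAc. Here the untreated and Ac-GlcNAc arrays overlapped, and the deoxy arrays lay below both. ID2 fell by 0.69 against Ac-GlcNAc (SE 0.11, limma adjusted p = 0.00507), kept in 6 of 6 fits. Its fall of 0.50 against untreated (limma adjusted p = 0.0125) was lost only without Ac-4-deoxy-GlcNAc replicate 3 (limma adjusted p = 0.0527). Another probe set names ID2 together with ID2B and was not used. BHLHE40, a HES-like repressor also called DEC1, fell by 0.41 against untreated (limma adjusted p = 0.0344), kept in 2 of 6 fits and lost without untreated replicate 2 or 3 or Ac-4-deoxy-GlcNAc replicate 1 or 3, while its difference between the compounds was -0.19 (limma adjusted p = 0.538).

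Of 12 genes that the literature describes as repressed by HES1, 8 were measured. Limma called 0 of 8 in each of the 3 comparisons, with 0 at an unadjusted p under 0.05. Over all probe sets 11% were called with the deoxy analog and 0.442% with Ac-GlcNAc against untreated, and 2.38% between the compounds. With 8 genes, 0 calls lies close to these shares. An unadjusted p under 0.05 was reached by 5579, 4719 and 2429 of all 17859 probe sets in the same order. The 2 with the smallest p were CDKN1B, the p27 cell cycle inhibitor, at 0.21 for Ac-GlcNAc against untreated (limma adjusted p = 0.212), and NEUROG1, a proneural factor, at -0.25 for Ac-4-deoxy-GlcNAc against untreated (limma adjusted p = 0.188). CDKN1B with the deoxy analog gave 0.20 (95% interval -0.03 to 0.43).

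Genes with a pattern like that of HES1 were sought over the 9 arrays among 7363 genes above the median level, as a description, since points share arrays and group means. The highest Pearson r was with IGFBP3, a binding protein of insulin-like growth factors, at 0.990, followed by RGL2 at 0.984, CAPG, an actin-capping protein, and PCYOX1L, both at 0.982, and AMTN, the enamel protein amelotin, at 0.980. The lowest were HERC1 at -0.970, RSKR at -0.969, OGT, which adds O-GlcNAc to proteins, at -0.968, NFAT5 at -0.964 and GARNL3 at -0.963. After the group means were taken out, r with HES1 ran from 0.78 (RGL2) to 0.91 (IGFBP3) for the first 5. For the last 5 it ran from -0.83 (GARNL3) to -0.54 (NFAT5), with -0.71 for OGT. These genes were picked for their r over the same arrays, so the values without group means are no separate support.

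Within the pathway, r with HES1 over the 9 arrays was 0.90 for LFNG and 0.89 for JAG1, and between -0.43 and 0.57 for the other 6 measured genes. With group means taken out, LFNG kept 0.57 and JAG1 0.01. The values over all arrays hold the difference between groups for which HES1 was picked, and with 3 flasks a group those without group means are imprecise.

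Markers of cell types were read as a check of the label. Of 12 epithelial and ovarian tumour markers 11 were measured, with mean log2 levels of 9.18 to 9.20 on untreated arrays, 9.10 to 9.17 after Ac-GlcNAc and 8.96 to 9.09 after Ac-4-deoxy-GlcNAc. ERBB2, whose gene is amplified in this line, stood highest at 12.2 in untreated cells, and WT1 lowest at 5.68. With the deoxy analog against untreated, KRT7, KRT19 and MUC1 fell and CDH1 rose, 4 of 11, where 11% of all probe sets were called. MUC1 also fell with Ac-GlcNAc, where 0.442% were called. Between the compounds CDH1 was called higher and CLDN4 lower, where 0.896% of all probe sets were called higher and 1.48% lower. Endothelial markers, 8 of 8 measured, had means of 4.84 to 5.16 over all arrays, from TEK at 4.21 to CLDN5 at 6.19 in untreated cells, and immune markers, 7 of 8, of 5.22 to 5.53, from LYZ at 3.88 to CD68, which tumour cells also express, at 9.36 in untreated cells. With the deoxy analog against untreated, PECAM1 rose and TIE1 fell among the 8 endothelial markers, and CD68 fell among the 7 immune markers. Of all probe sets 5.38% were called higher there and 5.64% lower. KDR rose against Ac-GlcNAc, where 0.896% were called higher.

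Of 10 fibroblast and pericyte markers 9 were measured. Their mean log2 level was 5.95 to 6.13 on untreated arrays, 5.70 to 5.76 after Ac-GlcNAc and 5.55 to 5.59 after the deoxy analog, and 5 of 9 (COL1A1, COL1A2, LUM, POSTN and FAP) fell with the deoxy analog against untreated, where 5.64% of all probe sets were called lower. Limma called 0 of 9 with Ac-GlcNAc, and the mean level there also lay below untreated. Of the markers not called with the deoxy analog, PDGFRB read 5.76 untreated and 5.75 with it. The others read lower with it: COL3A1 went from 5.33 to 5.01, DCN from 4.52 to 4.22 and RGS5 from 5.97 to 5.75. COL1A1, the highest of the list, read 9.09, 8.72 and 8.16 as group means, and FAP 4.42, 4.00 and 4.02. The part of these markers, and of those of the other lists, in the results for HES1, JAG1 and LFNG was not tested.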

How the data were processed

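Each array has 1 deposited log2 value per probe set. Per the submitters' processing notes, the authors used RMA, Partek and build hg18; the versions and settings are not given in the sources used here. The SD of the arrays ran from 1.92 to 2.18, so they do not share 1 distribution, as they would straight after quantile normalization, and which RMA steps were run is not known. No scanner files were used, so signal over background and scan batches could not be assessed. A value is that of a gene only where its probe set was paired with 1 gene (14413 of 17859 probe sets; 2405 name several and 1041 none), and genes with several use the highest mean over the 9 arrays.

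The fit used lmFit and eBayes of limma 3.58.1 (R 4.3.3) at their default options. It held all 9 arrays and a term for group, which left 6 residual degrees of freedom. Contrasts were two-sided, p-values were adjusted by Benjamini-Hochberg across the 17859 probe sets, and an adjusted p under 0.05 was called. The fit was tested on simulated data. The number of arrays, 3 per group, limits the precision: the median SE of a difference was 0.110.

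The members and lists were chosen with earlier results of these data known. All 10 members were named. From each other list up to 4 called genes were named by size, or, without a call, the 2 of smallest p, together with the 5 genes of highest and the 5 of lowest r with HES1. Of marker lists, mean levels and the lowest and highest genes are given, and the markers that were called were named after their values were seen. Replicate numbers come from the sample titles. Deviations of the same-numbered arrays from their group means correlated at -0.24 to 0.37 over 9 pairs, with 3 above 0.1, so the numbers were not taken as pairing. Starts and sequences come from RefSeq for GRCh38.p14, matched by symbol, and motifs were searched on both strands. The 20 other settings are described in the closing section.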

Additional observations from a re-analysis of the deposited data

How the results depend on the processing

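The 20 other settings were a replicate block, 3 scalings (cyclic loess, quantile normalization and median centring), keeping probe sets above the 25th or above the 50th percentile of level, trend and robust options, array weights, only the 6 compared arrays, array SD as a covariate, leaving out both untreated replicate 2 and replicate 1 of Ac-4-deoxy-GlcNAc, and leaving out each of the 9 arrays alone. Using the lowest probe set of a member gave no value, since no member has several. The causes of the changes below were not tested unless stated.

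The count of members called was 2, 0 and 1 in the order Ac-4-deoxy-GlcNAc against untreated, Ac-GlcNAc against untreated and Ac-4-deoxy-GlcNAc against Ac-GlcNAc. It became 1 in the first with the SD covariate, where LFNG was lost, and 2 in the last with array weights, where LFNG was gained. The count of 7 in the wider list with Ac-4-deoxy-GlcNAc against untreated was 3 with only the 6 compared arrays, which leave fewer degrees of freedom. It was 2 with the SD covariate, 3 with both arrays left out, and 3 to 11 when 1 array was left out. Over all 17859 probe sets the calls went from 1968 to 818, 596 and 730 in the same order. They were 604 to 3076 when 1 array was left out. For Ac-GlcNAc against untreated the wider count of 0 became 1 (PTCRA, named after its values were seen) with the replicate block, trend and robust options and array weights. It was 0 to 2 when 1 array was left out. Calls over all probe sets went from 79 to 324, 141 and 1760 in the same order. They were 4 to 1359 when 1 array was left out. Between the compounds the wider count of 1 became 3 with array weights, and 1 to 2 when 1 array was left out. Over all probe sets the calls there went from 425 to 1187, and to 141 to 659. With the replicate block the members' counts stayed at 2, 0 and 1 and the wider counts were 7, 1 and 1. The 7 were not the same genes: CREBBP lost its call (limma adjusted p = 0.0582), and 3 were higher and 4 lower, against 4 and 3 without the block. Of the 9 arrays, 3 correlated best with an array of their own number, so the numbers were not read as pairs.

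The sign turned in 63 values, all of differences that were not called, none beyond 0.10 in size and none called under the other setting. For Ac-4-deoxy-GlcNAc against untreated, cyclic loess gave -0.0062 for JAG2 and -0.025 for RBPJ, quantile normalization -0.0056 and -0.027, array weights -0.0020 for RBPJ, and the SD covariate -0.041 for JAG2. With both arrays left out, HEY1 was 0.012 and RBPJ -0.012. Leaving out 1 array gave -0.0073 to 0.10 for JAG2 and -0.041 to 0.11 for RBPJ.

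For Ac-GlcNAc against untreated, HEY1, NOTCH1, JAG1, JAG2 and RBPJ were 0.081, -0.0054, -0.062, -0.071 and -0.075 with cyclic loess, and 0.085, -0.0050, -0.058, -0.071 and -0.075 with quantile normalization. Array weights gave 0.083 for HEY1 and -0.055 for RBPJ. The SD covariate gave 0.056 for HEY1, -0.0052 for NOTCH3, -0.081 for JAG1 and -0.10 for JAG2. With both arrays left out, HEY1, JAG1 and JAG2 were 0.058, -0.0027 and -0.017. Leaving out 1 array gave -0.066 to 0.058 for HEY1, -0.0027 to 0.11 for JAG1, -0.017 to 0.082 for JAG2 and -0.043 to 0.10 for RBPJ.

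Between the compounds, NOTCH1 was 0.047 with cyclic loess, 0.042 with quantile normalization, 0.029 with median centring, 0.029 with the SD covariate and 0.012 with both arrays left out. HEYL was 0.0074 with quantile normalization, 0.010 with median centring and 0.049 with array weights, which gave -0.018 for JAG2. RBPJ was -0.018 with the SD covariate and -0.063 with both arrays left out. Leaving out 1 array gave -0.080 to 0.073 for HEYL, -0.050 to 0.042 for NOTCH1, -0.0018 to 0.088 for NOTCH3, -0.038 to 0.070 for JAG2 and -0.063 to 0.069 for RBPJ.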
